A study of Drosophila melanogaster with 48 samples.

Results

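The odorant-binding protein (*Obp*) genes of *Drosophila melanogaster* were taken as every gene of the count table whose FlyBase symbol begins with Obp followed by a digit, which gave 51 of 13957 genes. Their expression was measured by RNA sequencing in heads of males from 12 lines, on standard food (control) and on food with 75 mM menadione sodium bisulfite (MSB, stress), a compound that causes oxidative stress. Of the 12 lines, 8 were cosmopolitan. The German backgrounds M12 and M9 and the Cypriot background C2 each gave a nondeletion line (labeled M12N3, M9N1, and C2N1; here M12, M9, and C2) and a nearly isogenic deletion line from the same isofemale line (M12D3, M9D3, and C2D3; here M12Δ, M9Δ, and C2Δ). The Malaysian deletion line KL01 (KL1Δ) and nondeletion line KL02 (KL2) were unrelated, so that for this pair the deletion and the background cannot be told apart. The deletion lay in the 3′ UTR of *MtnA*, which encodes a metallothionein, and the 4 Zambian lines ZI197, ZI254, ZI273, and ZI418 did not carry it. Cosmopolitan flies were exposed for 24 h and Zambian flies for 18 to 20 h. Each library was made from 60 heads of living males, 5 to 7 days old. Each line had 2 control libraries. Under stress there were 3 libraries of ZI254 and of ZI273, 1 of ZI197 and of ZI418, and 2 of every other line.

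Odorant-binding proteins are small secreted proteins. In the antenna, support cells release them into the fluid around the dendrites of olfactory neurons, where they bind odorants and pheromones and shape the neuron's response. Other members are made in taste organs, in glia, in the fat body, or in the male reproductive tract, and several of them carry no known odorant.

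A total of 27223075 to 63358011 reads were counted per library, with a median of 40920022 in the controls and of 40361280 under stress. Stress replicate 1 of M9 stood apart from the other 23 stress libraries in a principal component analysis and was left out, so that 24 control and 23 stress libraries were used. M9, ZI197, and ZI418 are therefore represented by 1 stress library. Replicates differed by more than counting noise. The study's methods call them biological replicates without saying what separates them, and the p-values measure the spread between these libraries. Markers of neurons and photoreceptors were high in the control libraries (*elav* 117 to 190 CPM, *ninaE* 21475 to 46925 CPM). Of 6 antenna markers, the receptors *Or47b* and *Or22a* were lowest there, at most 0.210 and 0.539 CPM. The others were *Or67d* (0 to 3.23 CPM), *lush* (0.433 to 2.96 CPM), *a10* (0 to 7.86 CPM), and *Orco* (1.27 to 8.47 CPM). CPM, the usual measure of a gene's reads relative to the size of its library, was scaled by the trimmed mean of M values (TMM).

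The *Obp* genes together took 0.301% to 0.945% of all counts in the 24 control libraries (median 0.561%) and 0.249% to 0.513% in the 23 stress libraries (median 0.391%). A few members made up most of this. On a scale of CPM per kilobase of exon, 5 genes (*Obp99b*, *Obp99c*, *Obp44a*, *Obp19d*, and *Obp56d*) held 80.9% ± 5.94 (SD, n = 24) of the family's level in the controls. In CPM, 8 members averaged at least 100, 8 lay between 10 and 100, 8 between 1 and 10, 10 between 0.1 and 1, and 17 below 0.1. The 17 lowest included *Obp57d*, *Obp51a*, *Obp56i*, *Obp22a*, and all 5 genes of the *Obp50* cluster. *Obp50c* and *Obp50d* had no count in any control library, which by counting error alone allows up to 3 counts in each. *Obp50b* and *Obp50c* share the same coordinates and strand in the annotation (2R, 14371186 to 14373006). How reads were divided between these 2 genes is not given, so their values may not be separable.

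**Figure D1:**
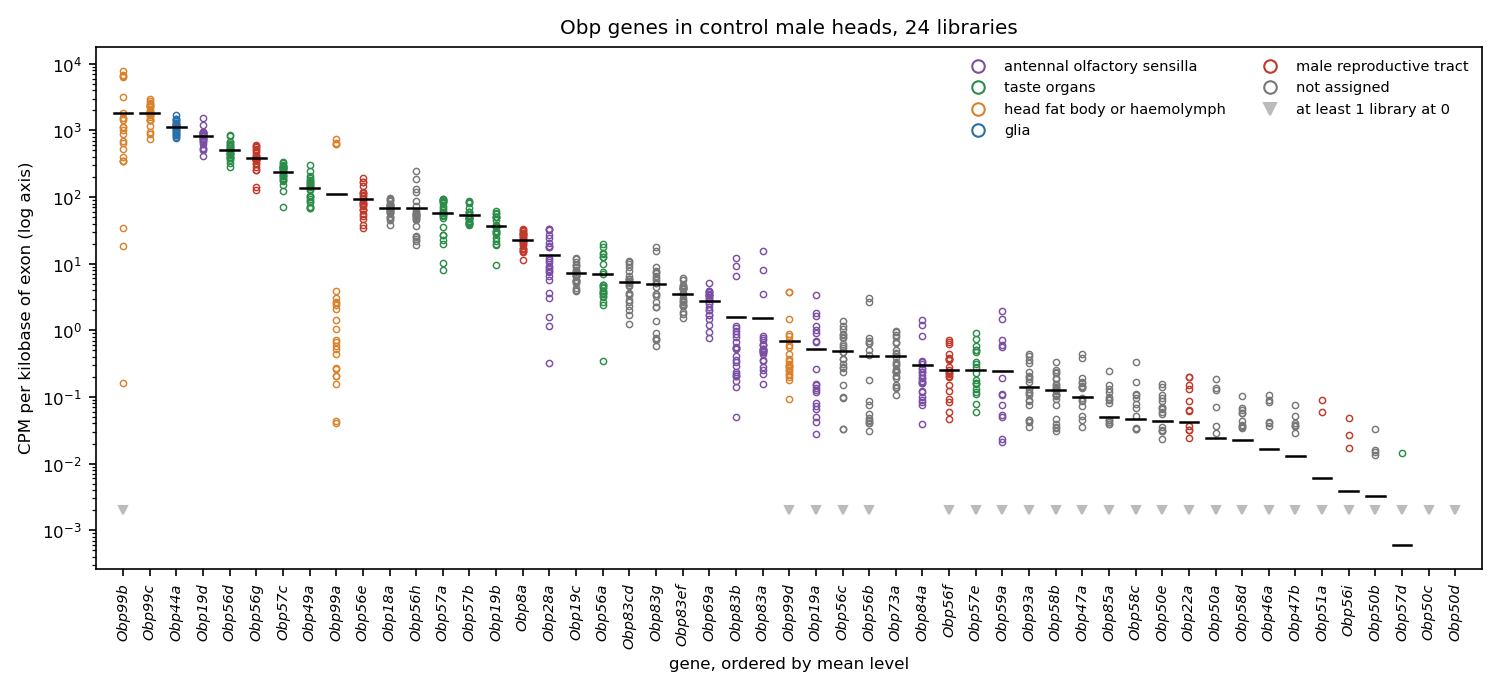
Level of each of the 51 *Obp* genes in the control heads, in CPM per kilobase of exon on a log axis. Points are the 24 control libraries, black bars are their means, colors are the list a gene was placed in, and gray triangles mark genes at 0 in at least 1 library. Mean levels ran from 1855 for *Obp99b* to 0 for *Obp50c* and *Obp50d*, and *Obp99a* and *Obp99b* had the widest spread among the high members.

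The highest mean level per kilobase was that of *Obp99b* (FBgn0039685; chromosome arm 3R, 29716254 to 29716896, FlyBase release 6 coordinates), a gene known from the fat body of the male head. It averaged 1855 CPM per kilobase, but its libraries ran from 0 to 4672 CPM with a median of 565 CPM. *Obp99c* (FBgn0039682) followed at 1835 CPM per kilobase and ranged from 505 to 1995 CPM with a median of 1186 CPM. Its line means ran from 692 CPM in M9 to 1748 CPM in M12. *Obp44a* (FBgn0033268), a gene of glia, came next at 1135 CPM per kilobase and ranged from 834 to 1812 CPM with a median of 1210 CPM. The library ranges of these 3 genes overlapped, and their order was not tested. The annotation used here gives 594 exon bases for *Obp99b* and 669 for *Obp99c*, while the deposited lengths are 586 and 580 bases. With the deposited lengths *Obp99c* would stand above *Obp99b*, as it did in CPM (means 1228 and 1102 CPM).

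*Obp19d* (FBgn0011280), made by support cells of antennal and gustatory hairs, averaged 811 CPM per kilobase and ranged from 461 to 1680 CPM. *Obp56d* (FBgn0034470) averaged 508 CPM per kilobase, between 256 and 779 CPM. *Obp56g*, also known from seminal fluid, averaged 382 CPM per kilobase. *Obp57c* averaged 235 CPM per kilobase, and *Obp49a*, a protein of taste hairs that takes part in the suppression of sweet taste by bitter compounds, averaged 139 CPM per kilobase. *Obp99a* (111 CPM per kilobase) and *Obp56e* (92.9 CPM per kilobase) closed the 10 most abundant members. Part of these reads may belong to overlapping genes on the other strand, since the use of strand in the counting is not given in the sources used here. The overlapping genes are *Pabp2* for *Obp44a*, *Gycalpha99B* for *Obp99c*, and *asRNA:CR44509* for *Obp56e*.

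The genes best known from antennal olfactory hairs were far lower, with the exception of *Obp19d*. *Obp28a* averaged 13.4 CPM per kilobase, *Obp69a* 2.74, *Obp83b* 1.59, and *Obp83a* 1.55. *Obp19a* averaged 0.522, *Obp84a* 0.305, and *Obp59a*, a protein needed for humidity sensing, 0.247 CPM per kilobase. *Obp83a* and *Obp83b* are neighboring genes of the same antennal hairs, and their mean levels per kilobase were nearly equal. Both means lay above the medians of the control libraries. In CPM, mean and median were 1.53 and 0.511 for *Obp83a* and 0.84 and 0.28 for *Obp83b*.

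To describe the response to MSB, the stress libraries were compared with the control libraries over all lines with the quasi-likelihood test of edgeR. The p-values were adjusted over all genes tested after Benjamini and Hochberg, and an adjusted p below 0.05 was the threshold for a call. Of the 51 members, 29 passed the filter on low counts, and 23 of these changed (79.3%), while 53.5% of all 10514 genes tested changed. Only 5 members rose, and 27.3% of all genes tested did so. The remaining 18 fell, against 26.2% of all genes tested. The median log2 fold-change was -0.64 over the 29 members and 0.01 over all genes tested. For none of the 29 members were the 24 control and 23 stress libraries fully separated, while of 10471 genes compared 0.659% were higher in all stress libraries and 0.344% were lower in all.

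**Figure D2:**
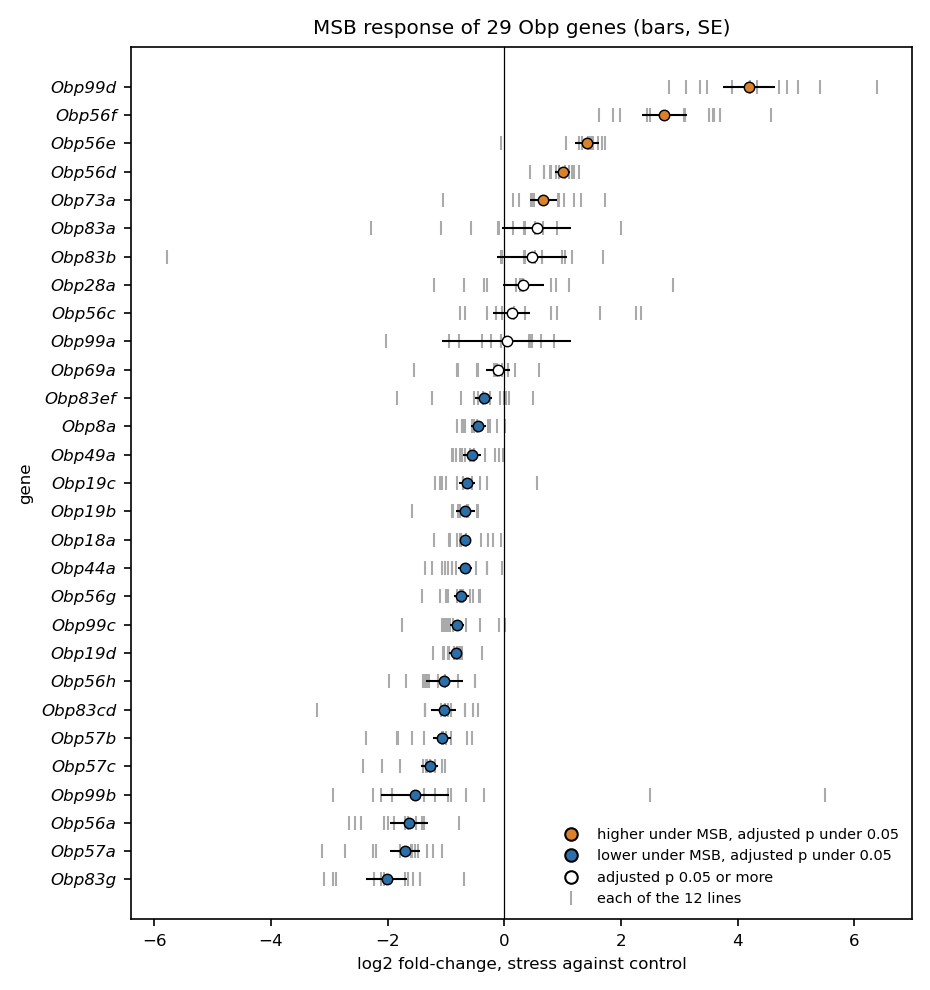
Log2 fold-change of stress against control for the 29 *Obp* genes tested. Filled circles are genes with an adjusted p under 0.05 (orange, higher; blue, lower), open circles are the others, horizontal bars are standard errors over all lines, and gray ticks are the 12 single lines. *Obp99d* lay farthest to the right at 4.19 and *Obp83g* farthest to the left at -2.01, and 2 lines of *Obp99b* stood on the opposite side from its other 10.

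The largest increase was that of *Obp99d* (FBgn0039684; 3R, 29714505 to 29715004), which was among the scarce members in control heads. Its controls ran from 0 to 1.87 CPM with a median of 0.152 CPM, and its stress libraries from 0.658 to 27.2 CPM with a median of 4.06 CPM. The 2 sets overlapped: both ZI273 controls (1.87 and 1.85 CPM) and control replicate 1 of M9 (0.740 CPM) were above the lowest stress library, which was that of ZI197. *Obp99d* rose by 4.19 on the log2 scale (SE 0.44, adjusted p = 3.4e-11), and in the separate fits it was called higher in 12 of 12 lines, by 2.82 in KL2 to 6.38 in KL1Δ.

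*Obp56d*, *Obp56e*, and *Obp56f* rose as well. They lie next to each other on chromosome arm 2R (19702924 to 19713976), with 8429 bases between *Obp56d* and *Obp56e* and 462 bases between *Obp56e* and *Obp56f*. *Obp56d*, known from taste organs, ranged from 256 to 779 CPM in the controls (median 441 CPM) and from 488 to 1572 CPM under stress (median 838 CPM). It rose by 1.00 (SE 0.13, adjusted p = 2.8e-09), was higher in 12 of 12 lines, and was called in 11 of them.

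*Obp56e* ranged from 18.3 to 101 CPM in the controls (median 43.3 CPM) and from 51.5 to 284 CPM under stress (median 100 CPM). It rose by 1.42 (SE 0.20, adjusted p = 4.8e-08) and was called higher in 11 of 12 lines. ZI197 was the exception, with 43.4 and 63.6 CPM in its controls and 51.5 CPM in its stress library. *Obp56f*, known from seminal fluid, was near the limit of detection in control heads (0 to 0.373 CPM, median 0.118 CPM) and ranged from 0 to 2.34 CPM under stress (median 0.791 CPM). It rose by 2.74 (SE 0.38, adjusted p = 3.1e-08), was higher in 12 of 12 lines, and was called in 6. In ZI273 both controls of *Obp56f* were at 0 and its stress libraries were at 0.107, 0, and 0.101 CPM, so the fitted value of that line rests on few counts.

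Of the other *Obp56* genes, 3 fell. *Obp56a*, which starts the same cluster at position 19697723, ranged from 0.189 to 10.8 CPM in the controls (median 2.50 CPM) and from 0.205 to 3.25 CPM under stress (median 0.912 CPM), and it fell by 1.63 on the log2 scale (SE 0.32, adjusted p = 2.7e-05). *Obp56h*, which acts in male mating behavior, ranged from 11.3 to 145 CPM in the controls (median 31.7 CPM) and from 2.59 to 63.4 CPM under stress (median 12.8 CPM), and it fell by 1.03 (SE 0.32, adjusted p = 0.0057). *Obp56g* fell by 0.74 (SE 0.13, adjusted p = 4.9e-06), from a median of 186 CPM to 113 CPM. *Obp56g* and *Obp56h* lie farther along the arm, at 19783484 to 19784043 and 19815554 to 19816204. *Obp56c*, between *Obp56b* and *Obp56d*, did not pass the test (0.12, SE 0.32, adjusted p = 0.77), and *Obp56b* and *Obp56i* were too scarce to be tested over all lines.

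*Obp57a*, *Obp57b*, and *Obp57c* formed a run of falling genes. They are known from taste organs and sit on 2R within 20503584 to 20505758, with 48 bases between *Obp57c* and *Obp57b* and 13 bases between *Obp57b* and *Obp57a*. *Obp57a* ranged from 4.5 to 52.3 CPM in the controls (median 32.8 CPM) and from 1.47 to 21.3 CPM under stress (median 8.83 CPM), and it fell by 1.70 (SE 0.25, adjusted p = 1.2e-07). *Obp57b* ranged from 31.7 to 72.6 CPM and from 7.64 to 37.7 CPM, and it fell by 1.07 (SE 0.15, adjusted p = 2.3e-08). *Obp57c* ranged from 39.3 to 189 CPM and from 17.7 to 85.9 CPM, and it fell by 1.28 (SE 0.15, adjusted p = 6.3e-10). Each of the 3 was lower in 12 of 12 lines and was called in 11, while 3.92% to 18.1% of all genes tested were called lower in a single line. *Obp57d* and *Obp57e*, which lie farther along the arm, were too scarce to be tested over all lines.

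**Figure D3:**
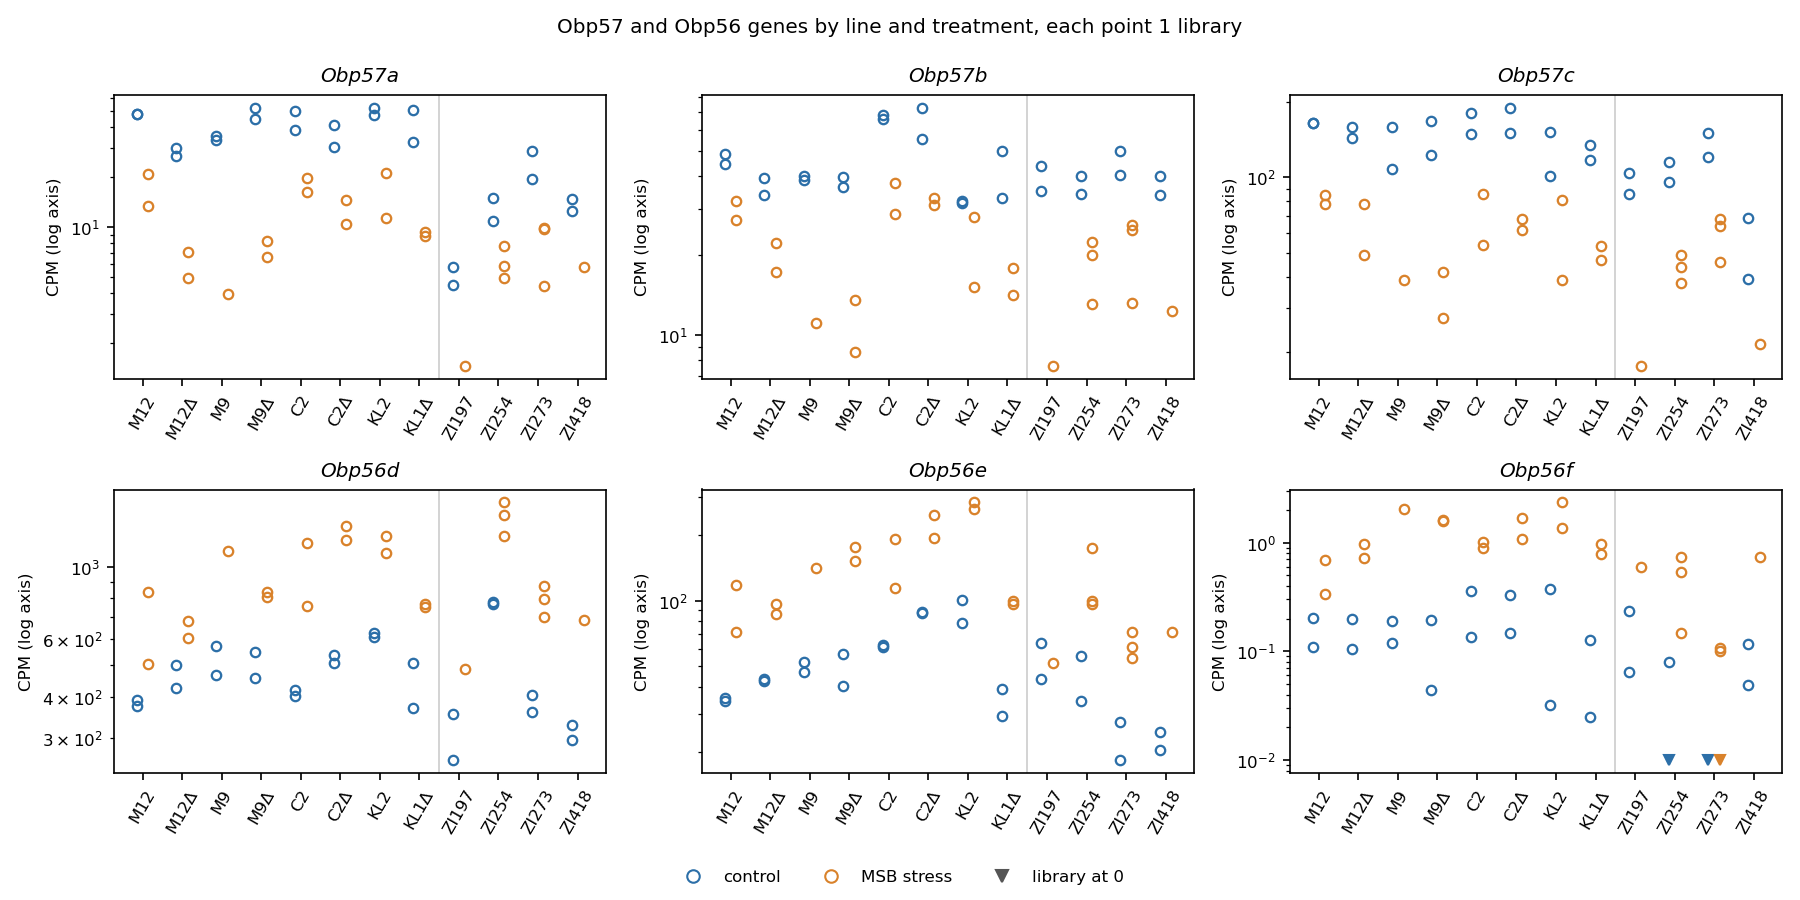
CPM on a log axis of *Obp57a*, *Obp57b*, *Obp57c*, *Obp56d*, *Obp56e*, and *Obp56f* in each line. Circles are single libraries (blue, control; orange, stress), triangles are libraries at 0, and the gray line divides cosmopolitan from Zambian lines. In 12 of 12 lines the fitted change was downward for the 3 *Obp57* genes and upward for *Obp56d* and *Obp56f*, and *Obp57a* was lowest in ZI197, with 4.5 and 5.73 CPM in its controls.

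Among the *Obp99* genes, which lie within 29671657 to 29716896 on 3R, the responses differed. *Obp99c* ranged from 505 to 1995 CPM in the controls and from 461 to 1077 CPM under stress (medians 1186 and 671 CPM), and it fell by 0.82 (SE 0.12, adjusted p = 2.6e-07). *Obp99b* fell by 1.53 over all lines (SE 0.58, adjusted p = 0.023), with a median of 565 CPM in the controls and 274 CPM under stress, and this call was lost when the counts of each line were summed and the line was the unit (-0.98, adjusted p = 0.10) and without line KL2 (-1.22, adjusted p = 0.087). *Obp99a* did not pass the test (0.04, SE 1.11, adjusted p = 0.98), and its fitted direction turned in several alternatives. *Obp99d*, the only member of the group that rose, lies 1249 bases from *Obp99b*. Markers of the fat body moved in the same comparison, as 3 of 4 fell (*apolpp* by 2.01, *Lsp2* by 2.07, and *FASN1* by 1.57 on the log2 scale) and *to* did not pass (0.39, adjusted p = 0.55). Their summed level was 4143 to 20123 CPM in the controls (median 8402 CPM) and 1207 to 7383 CPM under stress (median 2011 CPM), and its part in the *Obp99* values was not tested. In whole heads, fewer cells of a type and less RNA per cell cannot be told apart.

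*Obp44a*, the glial member, ranged from 834 to 1812 CPM in the controls and from 416 to 1457 CPM under stress (median 647 CPM). It fell by 0.68 (SE 0.12, adjusted p = 3.4e-06), was lower in 12 of 12 lines, and was called in 5. The glial markers *repo* and *alrm* also fell (by 0.68 and 0.54), whereas *moody* did not pass the test (0.02, adjusted p = 0.87), and the part of the marker levels was not tested. *Obp19d* fell by 0.84 (SE 0.11, adjusted p = 3.9e-09), from a median of 889 CPM to 463 CPM, and was called lower in 9 of 12 lines.

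The remaining falling members were scarcer. *Obp83g* showed the largest decrease, from 0.334 to 10.1 CPM in the controls (median 2.28 CPM) to between 0.108 and 1.72 CPM under stress (median 0.537 CPM), which is 2.01 on the log2 scale (SE 0.35, adjusted p = 3.2e-06), and it was called lower in 9 of 12 lines. *Obp83cd*, its neighbor on 3R, fell by 1.04 (SE 0.21, adjusted p = 3.8e-05), from a median of 4.65 CPM to 2.22 CPM. Between them, *Obp83ef* fell by 0.35 (SE 0.15, adjusted p = 0.039), and this call was lost without the Zambian lines (-0.04, adjusted p = 0.85). It held in 35 of 59 fits with 1 library or line left out (-0.41 to -0.25) and was lost without M12, M12Δ, ZI254, ZI273, or ZI418. *Obp83cd* and *Obp83ef* overlap by 92 bases on opposite strands. *Obp18a*, *Obp19b*, *Obp19c*, *Obp49a*, and *Obp8a* fell by 0.67, 0.67, 0.64, 0.56, and 0.44.

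*Obp73a* was the fifth member that rose. It ranged from 0.0957 to 0.893 CPM in the controls (median 0.275 CPM) and from 0.227 to 1.05 CPM under stress (median 0.507 CPM). It rose by 0.67 (SE 0.23, adjusted p = 0.012), was called in no single line, and did not pass without the Zambian lines (adjusted p = 0.056) or without line ZI273 alone (0.55, adjusted p = 0.060). It overlaps *Ogdh* on the same strand.

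The members were also grouped by their best known site of expression, without a test between the groups, and 27.3% of all genes tested rose and 26.2% fell. Of 9 taste-organ genes 7 were tested, of which 1 rose and 6 fell, with a median log2 fold-change of -1.07. Of 8 antennal genes 5 were tested, of which only *Obp19d* changed, with a median of 0.33. Of 4 head fat body genes, 1 rose and 2 fell (median -0.39). Of 7 genes of the male reproductive tract 4 were tested, with 2 that rose (*Obp56e* and *Obp56f*) and 2 that fell (*Obp56g* and *Obp8a*; median 0.49). The accessory gland markers *Acp26Aa*, *Acp36DE*, *Acp76A*, and *SP* stayed at or below 0.320 CPM in all 47 libraries. *Acp63F* was at 0.0835 to 0.791 CPM in the controls and 0.253 to 2.34 CPM under stress and rose by 1.76, and its part in the values of *Obp56e* and *Obp56f* was not tested. Of the gustatory neuron markers, which were scarce (control medians 0.412 to 1.88 CPM), *Gr66a* rose by 0.69 and *Gr5a*, *Gr64f*, and *ppk28* did not pass the test. Their part in the values of the taste-organ genes was not tested.

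When each line was tested in a fit of its own background, between 6 members (ZI418) and 19 members (M9Δ) were called. In ZI418 these were 6 of 35 tested, or 17.1%, beside 15.8% of all genes tested there. In M9Δ they were 19 of 33, or 57.6%, beside 33.0% of all genes. In the cosmopolitan nondeletion lines, 14 members were called in M12, 14 in M9, 11 in C2, and 13 in KL2, where 12.6%, 27.4%, 9.22%, and 8.29% of all genes tested were called. In the deletion lines there were 18 in M12Δ, 15 in C2Δ, and 14 in KL1Δ, beside 34.4%, 14.7%, and 24.9%. In the remaining Zambian lines there were 8 in ZI197, 14 in ZI254, and 17 in ZI273, beside 14.0%, 16.9%, and 25.7%. For M9, ZI197, and ZI418, the spread of the lone stress library is assumed to equal that of the groups fitted with it.

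Differences between the 12 lines were then tested in the control libraries. Of 35 members tested, 23 differed between lines (65.7%), and 51.5% of all 11194 genes tested did. The 6 tested members with the largest range of line means on the log2 scale were *Obp99b* (14.91), *Obp99a* (11.25), *Obp83g* (4.31), *Obp56b* (4.10), *Obp99d* (4.02), and *Obp19a* (3.78). In comparison, *Obp44a* had a range of 0.72 and did not differ between lines (adjusted p = 0.58), and *Obp28a*, whose replicates spread by an SD of 1.5 on the log2 scale, did not pass either (adjusted p = 0.40).

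*Obp99a* (FBgn0039678; 3R, 29671657 to 29672334) was high in 1 background only. M12 had 396 and 382 CPM and M12Δ had 449 and 381 CPM in their controls. The 20 control libraries of the other 10 lines lay between 0.0246 and 2.36 CPM (median 0.379 CPM). Under stress the 4 libraries of M12 and M12Δ lay between 370 and 419 CPM and the 19 others between 0 and 1.82 CPM, so the 2 sets did not overlap in either treatment. The M9 stress library that was left out had 26.7 CPM. The mean of the M12 and M12Δ controls was 567-fold that of the other controls, and the difference between lines had an adjusted p of 3.0e-15.

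*Obp99b* varied even more. It was highest in ZI254 (4672 and 3983 CPM), followed by KL2 (3788 and 3860 CPM) and ZI273 (1095 and 1912 CPM), and the libraries of these 3 lines did not overlap. C2, M9Δ, M12Δ, M12, KL1Δ, C2Δ, and ZI418 had line means between 207 and 906 CPM. ZI197 had 10.8 and 20.6 CPM, and M9 had 0.0955 and 0 CPM. The line differences had an adjusted p of 2.6e-10.

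The 2 lines of the M9 background thus differed in *Obp99b*. The paper reports more residual sequence difference within this pair than within the M12 or C2 pair. The deletion and other differing loci therefore cannot be told apart here. In the controls M9Δ had 71750 counts and M9 had 4, a ratio of 13914 after scaling (95% exact interval 5434 to 51069, which covers counting error only). The edgeR test between these lines gave an adjusted p of 6.8e-05, with a fitted log2 difference of 13.65 (SE 0.62) that depends on the prior count. In M9Δ the controls of *Obp99b* were at 523 and 854 CPM and its stress libraries at 113 and 186 CPM. The stress library of M9 had 2.42 CPM, which was above both of its controls.

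**Figure D4:**
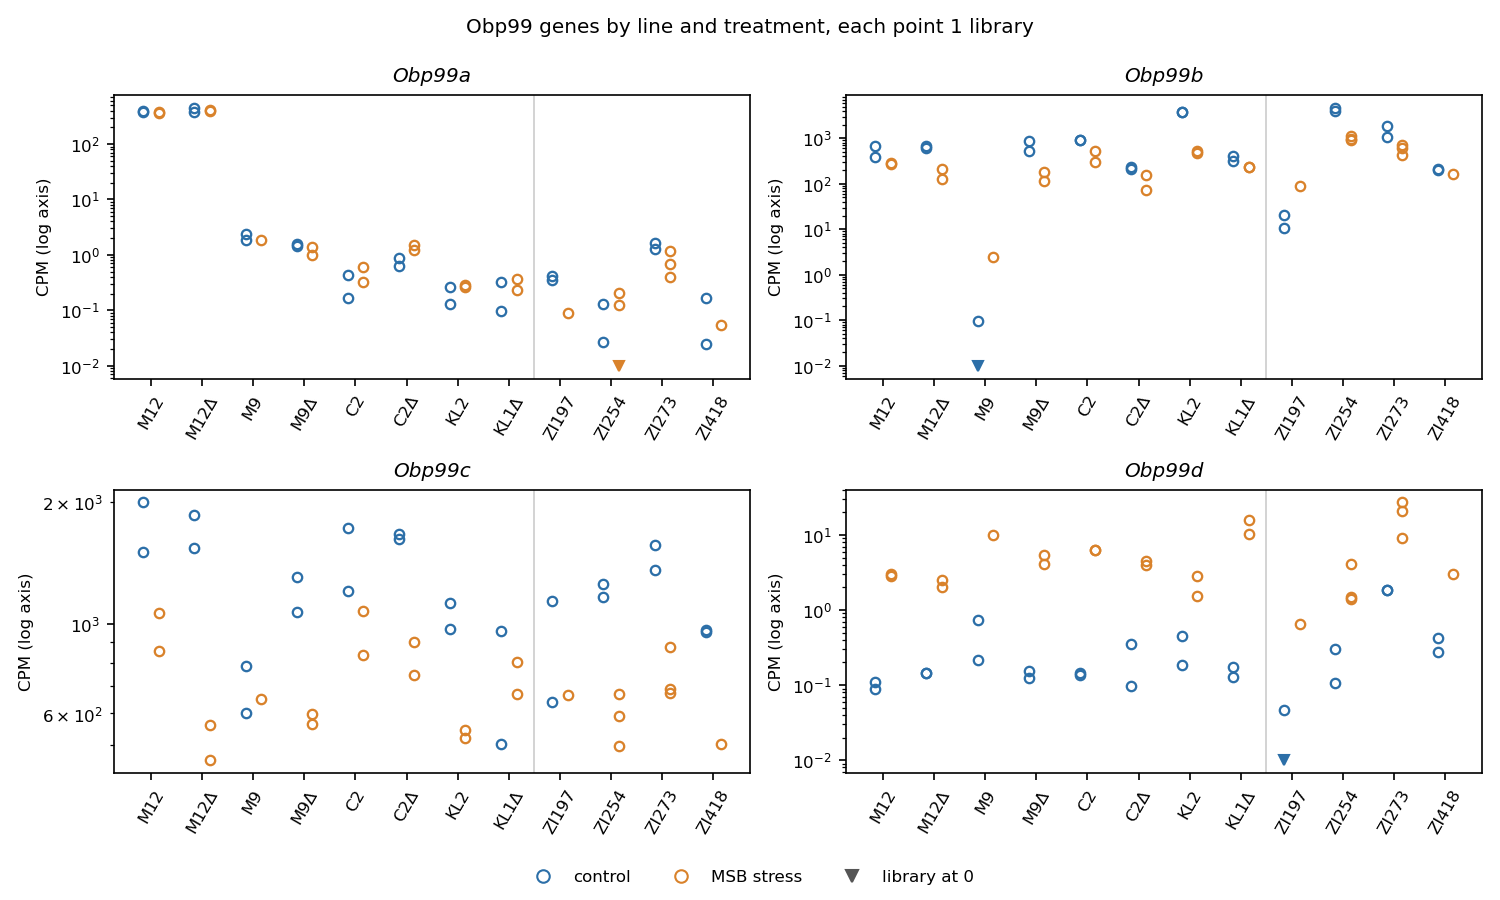
CPM on a log axis of the 4 *Obp99* genes in each line. Circles are single libraries (blue, control; orange, stress), triangles are libraries at 0, and the gray line divides cosmopolitan from Zambian lines. *Obp99a* was at 370 CPM or more in M12 and M12Δ and at most 2.36 CPM in the other 10 lines, *Obp99b* was below 3 CPM only in M9, and for *Obp99d* stress exceeded control in 12 of 12 lines.

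*Obp83g* ranged among lines from 0.384 CPM in M9 (0.334 and 0.435 CPM) to 9.49 CPM in C2Δ (10.1 and 8.91 CPM), with an adjusted p of 1.6e-08. M9Δ (0.592 CPM) and ZI418 (0.464 CPM) were also low, and their libraries overlapped. *Obp56b* was measurable mainly in KL2 (1.52 and 1.72 CPM), and the other 11 lines averaged at most 0.384 CPM. *Obp56h* was highest in ZI254 (145 and 109 CPM) and ZI197 (69.4 and 77.8 CPM) and lowest in ZI273 (14.9 and 11.3 CPM), so that Zambian lines held both ends of its range. *Obp99d* was highest in ZI273 (1.87 and 1.85 CPM), and the means of the 11 others were at most 0.479 CPM.

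The 4 Zambian lines were compared with the 8 cosmopolitan lines in the controls, with the counts of each line summed and the line as the unit. Zambian controls were also kept for fewer hours, which cannot be told apart from the origin of the lines. No member of 34 tested passed the threshold in edgeR, as did 0.0362% of all 11041 genes tested. At an unadjusted p below 0.05 there were 12 members, and DESeq2 called 2 (*Obp57a* and *Obp59a*). *Obp57a* came closest: its line means were 5.12 to 24.1 CPM in Zambia and 28.5 to 49.7 CPM elsewhere and did not overlap. This was the only such member of 34, and 0.9% of the 10995 genes with line means compared were lower in all Zambian lines and 0.582% were higher. The log2 difference of *Obp57a* was -1.58 (SE 0.31, unadjusted p = 0.00025, adjusted p = 0.087). With single libraries as the unit, 4 members passed (*Obp19c*, *Obp57a*, *Obp57c*, and *Obp99a*). *Obp99a* was high in the M12 background alone.

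Between deletion and nondeletion lines in the controls, no member of 33 passed in M12 (3 at an unadjusted p below 0.05, 0 in DESeq2, and 1 in edgeR with only the groups compared, *Obp57a*). No member of 31 passed in C2, where 8 had an unadjusted p below 0.05. *Obp99b* was called in C2 by DESeq2, with 1 fit over all lines, and with no filter on low counts. It was at 903 and 908 CPM in C2 and at 234 and 207 CPM in C2Δ (log2 difference -2.04, SE 0.37, edgeR adjusted p = 0.10). In M12 and C2, 0.1% and 0.232% of all genes tested were called. In M9 only *Obp99b* was called in edgeR, beside 2.28% of all genes, and DESeq2 called 4 members. In the unrelated KL lines 7 of 33 members were called (21.2%), beside 10.9% of all genes.

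Of the 7, 6 were lower in KL1Δ than in KL2 and 1 was higher, beside 5.47% and 5.41% of all genes tested. *Obp99b* was at 416 and 315 CPM in KL1Δ and at 3788 and 3860 CPM in KL2 (log2 difference -3.38, SE 0.18, adjusted p = 2.0e-05). *Obp56b* had 2 counts in KL1Δ and 111 in KL2, a ratio of KL2 to KL1Δ of 58.1 (95% exact interval 15.7 to 486, counting error only). *Obp56e* was at 38.9 and 29.2 CPM against 101 and 78.7 CPM (-1.39, SE 0.17, adjusted p = 0.0015). None of these libraries overlapped between the lines. *Obp83g*, *Obp56a*, and *Obp18a* were also lower in KL1Δ (by 1.76, 1.87, and 0.71), and *Obp8a* was higher, at 16.1 and 12.6 CPM against 9.35 and 9.0 CPM (0.65, SE 0.17, adjusted p = 0.048). The call of *Obp8a* was lost in 1 fit over all lines (adjusted p = 0.054) and with only the groups compared (adjusted p = 0.075). Without control replicate 2 of KL2, 5 members in place of 8 were called over the 4 backgrounds. With 1 library left out, *Obp56a* was called in 6 of 8 fits, *Obp18a* in 5, and *Obp8a* in 3, and *Obp99b*, *Obp56b*, *Obp56e*, and *Obp83g* in 8 of 8.

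The response to MSB differed between the 12 lines for 2 of 37 members tested (5.41%), while it did so for 9.66% of all 11979 genes tested. The count depended on the tool and on M9: DESeq2 called 12 members, and edgeR called 12 when the other stress library of M9 was left out in place of the first. The first of the 2 was *Obp99b* (adjusted p = 5.0e-06). It fell in M12Δ, M9Δ, KL1Δ, KL2, ZI254, and ZI273, by 0.66 in KL1Δ to 2.94 in KL2 on the log2 scale. It was lower without a call in M12, C2, C2Δ, and ZI418 (-0.92, -1.19, -0.96, and -0.35). In the 2 lines in which its control level was lowest, it rose: from 10.8 and 20.6 CPM to 89.1 CPM in ZI197 (2.50, SE 0.38, adjusted p = 0.0015), and from 0.0955 and 0 CPM to 2.42 CPM in M9 (5.50, SE 0.85, adjusted p = 0.0027). In M9 this was 104 counts in 1 stress library against 4 counts in 2 controls, a ratio of 47.6 after scaling (95% exact interval 18.1 to 178, counting error only). Without control replicate 1 or 2 of M9 the fitted value was 9.74 or 4.63, and it remained called. Both lines have 1 stress library. The call in KL1Δ held in 6 of 8 fits with 1 library left out, and that in ZI273 in 15 of 16.

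The second was *Obp19c*, a member of the X-linked *Obp19* cluster (adjusted p = 0.034). It fell in 6 lines, by up to 1.19 in M9Δ. In ZI418 it was at 6.29 and 6.29 CPM in the controls and 9.18 CPM in the 1 stress library, a difference that did not pass (0.55, adjusted p = 0.19). Without the Zambian lines the adjusted p of the line differences was 0.62.

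No member of 33 had a response that differed between *MtnA* genotypes over the 8 cosmopolitan lines, as did 0.159% of all genes tested, and none reached an unadjusted p below 0.05 or a call in DESeq2. The response differed between Zambian and cosmopolitan lines for 1 of 34 members, beside 0.495% of all genes tested. This was *Obp83ef*, with a log2 difference of the responses of -0.95 (SE 0.23, adjusted p = 0.049). In Zambian lines it went from line means of 2.80 to 4.71 CPM in the controls to 1.30 to 3.14 CPM under stress, and in cosmopolitan lines from 1.63 to 3.78 CPM to 1.66 to 3.60 CPM. The call was lost with RLE size factors (adjusted p = 0.0501) and in 6 other alternatives. The ranges also differed in the hours of exposure, which cannot be told apart from the origin of the lines.

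Several antennal members varied between replicates of a line more than between lines. Among the 47 libraries, 6 had *Obp83a* above 3 CPM, and the other 41 were at 0.153 to 1.06 CPM. The 6 were control replicate 1 of M12Δ (15.3 CPM), stress replicate 1 of M12Δ (25.7 CPM), stress replicate 2 of M12 (4.31 CPM), control replicate 2 of C2Δ (3.43 CPM), control replicate 1 of KL1Δ (7.89 CPM), and stress replicate 2 of KL1Δ (11.4 CPM). In each case the other library of the same line and treatment was at or below 1.06 CPM.

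Other antennal genes were compared between the same 6 libraries and the 41, as a description only, since the 6 were picked by *Obp83a* after its values were seen. *Obp83b* was 2.24 to 13.8 CPM in them and at most 0.621 CPM in the other 41. *Obp19a* and *Obp84a* were above the highest of the 41 in 5 of the 6, and *Obp59a* in 1. The chemosensory protein gene *a10*, another antennal gene, was at 1.69 to 8.24 CPM in the 6 and at 0 to 6.2 CPM in the 41. For *a10*, 3 of the 6 were above the 41. *Orco*, the coreceptor of olfactory receptors, overlapped between them (4.09 to 8.47 and 1.27 to 11 CPM), as did *Or22a* (0.105 to 0.625 and 0 to 0.851 CPM). *Or47b* was at 0 to 0.21 CPM in the 6 and at 0 to 0.102 CPM in the 41, with 2 of the 6 above the 41. *Obp19d* overlapped as well (406 to 1680 and 374 to 1343 CPM). So did *Obp28a* (6.16 to 21.1 and 0.0248 to 19.4 CPM), *Obp69a* (1.12 to 2.83 and 0.227 to 2.16 CPM), and *lush* (0.812 to 3.70 and 0.107 to 2.13 CPM), of which 1, 2, and 3 of the 6 libraries were above the 41.

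**Figure D5:**
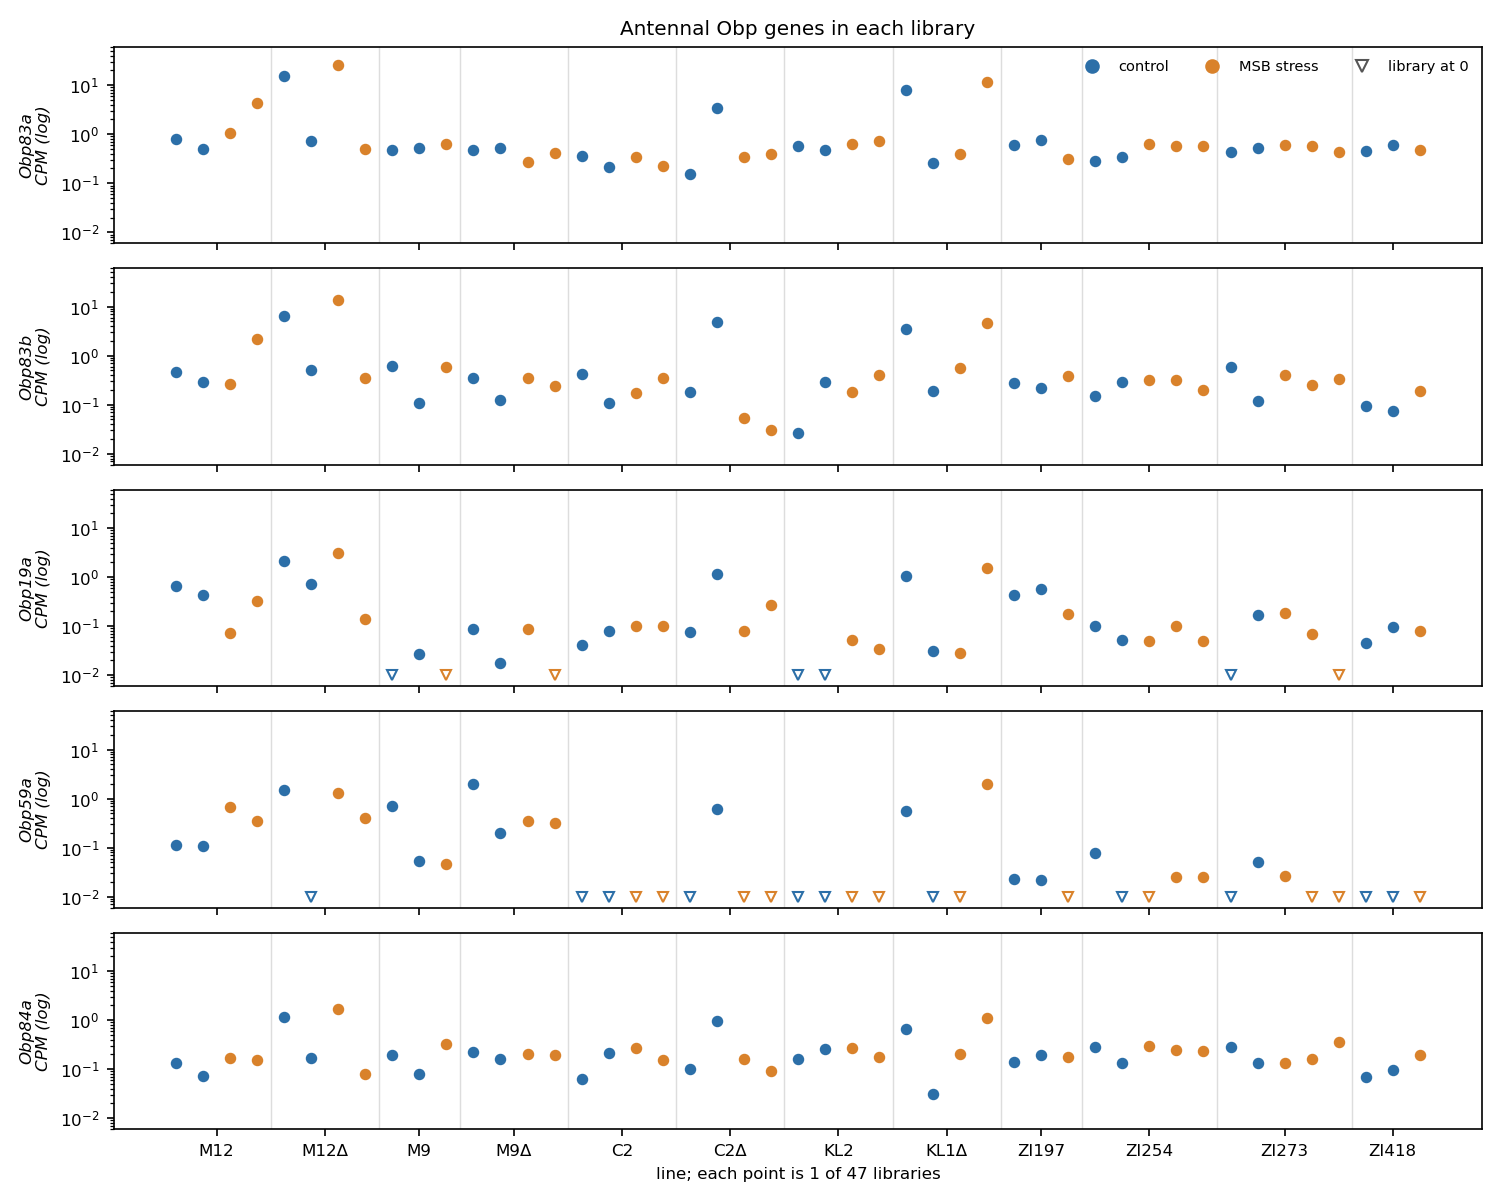
CPM on a log axis of *Obp83a*, *Obp83b*, *Obp19a*, *Obp59a*, and *Obp84a* in each of the 47 libraries, ordered by line and, within a line, control before stress. Filled circles are libraries (blue, control; orange, stress) and open triangles are libraries at 0. For *Obp83a*, 6 libraries lay above 3 CPM while their replicates lay at or below 1.06 CPM.

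The test of line differences called *Obp19a*, *Obp83a*, and *Obp83b* (adjusted p = 0.0088, 0.017, and 0.033). With each control library left out in turn, the call of *Obp19a* held in 24 of 24 fits. That of *Obp83a* held in 23 of 24 and that of *Obp83b* in 17 of 24. In C2Δ, *Obp83b* was called lower under stress (-5.79, adjusted p = 0.047), where its controls were 0.178 and 4.82 CPM and its stress libraries 0.0528 and 0.0304 CPM. This call held in 3 of 8 fits with 1 library left out, and the value was -2.04 without control replicate 2 of C2Δ. *Obp83a* and *Obp83b* did not pass the test of MSB over all lines (0.55, SE 0.59, and 0.47, SE 0.60).

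Other genes that act beside these proteins were taken from a list of 17 (chemosensory proteins, coreceptors, membrane proteins, and odorant-degrading enzymes), of which 16 were tested for MSB. In all, 5 rose and 5 fell, with a median log2 fold-change of -0.08, beside 27.3% and 26.2% of all genes tested. The ammonium transporter *Amt*, a gene of ammonia-sensing hairs, rose by 2.55 (SE 0.24). *Snmp2*, *EbpIII*, *Ir25a*, and *ATP8B* rose by 0.60, 0.40, 0.38, and 0.16. The odorant-degrading esterase *Est-6* fell by 2.75 (SE 0.22), and *Snmp1*, *antdh*, *Ugt35b*, and *Jhedup* fell by 0.84, 1.04, 0.82, and 0.91. *lush*, an odorant-binding protein gene under another symbol that is needed for pheromone detection, did not pass (-0.39, SE 0.23, adjusted p = 0.14), nor did *Orco* (0.20, adjusted p = 0.34).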

How the data were processed

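Total RNA of whole heads (RNeasy, poly-A selection, paired-end Illumina reads) was mapped by the authors to the FlyBase 6.31 transcriptome with NextGenMap 0.5.5. The authors deposited raw counts per gene in 1 table of 48 libraries; the counting program, its use of strand, and its treatment of multiply mapped reads are not given in the sources used here. The submitters' processing notes name DESeq2 1.28.1 and R 4.0.0. The table also holds the summed exon length of each gene, and the deposited value equals that of the annotation used here (Ensembl release 115, same assembly) for 45 of 51 members; levels per kilobase use the annotation. A deposited sample sheet matched the labels in 48 of 48 libraries and was not used further. Symbols came from FlyBase identifiers, and 50 identifiers had none.

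Tests used edgeR 4.0.16 in R 4.3.3: TMM scaling, filterByExpr, and two-sided quasi-likelihood F tests. Benjamini-Hochberg adjustment ran over all genes tested, with a threshold of 0.05. The SE was obtained from the log2 fold-change and the F statistic, as their quotient after taking the root of F. MSB over all lines had treatment as the only term; each background, and the Zambian lines together, had 1 group per line and treatment; the interactions of treatment with line, genotype, and range were fitted with line in the model. Line ranges used log2(CPM + 0.1). Intervals and floors cover counting error only. The library left out lay farthest from the other stress libraries in a principal component analysis of the 500 most variable genes. Named genes were the 10 most abundant members per kilobase, up to 8 in each direction past the threshold for MSB, the 6 with the largest range of line means, and those called between genotypes or ranges; *Obp83a*, *Obp83b*, and *Obp19c* were added after their values were seen, as were the short lists of other called members. Members, lists, and rules were chosen with earlier results of these data known. Scripts were tested on simulated counts. The alternatives were DESeq2 1.42.0, RLE size factors, no filter, all 48 libraries, the other M9 stress library left out, a threshold of 0.01, a line block, a replicate block, line or library as the unit, other sets of lines, and each library or line left out.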

Additional observations from a re-analysis of the deposited data

Results flagged for a closer look

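Within the libraries of 1 origin and treatment, 163 sets of 4 to 8 libraries were examined, and in 12 of them 1 library lay far from the others by Dixon's criterion, which chance alone would give in about 1 of 20 sets. *Obp19a* accounted for 5: C2Δ control replicate 2 at 1.18 CPM (nearest other Cypriot control 0.0809 CPM), M12Δ control replicate 1 at 2.16 CPM (nearest German control 0.737 CPM), M12Δ stress replicate 1 at 3.11 CPM (nearest German stress library 0.320 CPM), KL1Δ control replicate 1 at 1.04 CPM (nearest 0.0317 CPM), and KL1Δ stress replicate 2 at 1.56 CPM (nearest 0.0532 CPM). These are 5 of the 6 libraries with *Obp83a* above 3 CPM. *Obp83ef* was low in C2 control replicate 1 (2.13 CPM, nearest 3.70 CPM) and ZI197 control replicate 1 (1.40 CPM, nearest 3.92 CPM). *Obp56g* was high in KL2 stress replicate 2 (134 CPM, nearest 83.1 CPM) and *Obp57b* in KL1Δ control replicate 2 (49.7 CPM, nearest 32.9 CPM). ZI254 had 2 high values, *Obp56e* in stress replicate 1 (175 CPM, nearest 100 CPM) and *Obp56a* in control replicate 1 (6.84 CPM, nearest 4.05 CPM). *Obp99d* was high in the M9 stress library that was used (9.96 CPM, nearest German stress library 5.36 CPM).

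The edgeR response to MSB differed between lines for *Obp99b* (adjusted p = 4.98e-06) and *Obp19c* (adjusted p = 0.034), and between Zambian and cosmopolitan lines for *Obp83ef* (adjusted p = 0.0492).

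In the M9 stress library that was left out, 9 members were at 1 CPM or more and above the highest of the 47 libraries used. *Obp51a*, a gene of the male reproductive tract, was at 91.0 CPM there and at most 0.0354 CPM elsewhere. *Obp83a* was at 31.4 CPM (elsewhere up to 25.7 CPM) and *Obp83b* at 18 CPM (up to 13.8 CPM). *Obp50b* was at 8.77 CPM (up to 0.140 CPM), *Obp50c* at 2.92 CPM (up to 0.0698 CPM), and *Obp50d* at 1.14 CPM (up to 0.0266 CPM). The values of *Obp50b* and *Obp50c*, which share coordinates, may not be separable. *Obp56i* was at 6.30 CPM (up to 0.0492 CPM), *Obp56f* at 5.83 CPM (up to 2.34 CPM), and *Obp22a* at 1.19 CPM (up to 0.244 CPM). The accessory gland markers summed to 65.0 CPM in this library and to at most 2.52 CPM elsewhere. Markers of flight muscle summed to 120 CPM (up to 42.3 CPM) and those of the midgut to 303 CPM (within the range elsewhere, up to 366 CPM). Of the midgut markers, *Mal-A1* was at 143 CPM (elsewhere up to 10.5 CPM) and *Jon65Aiv* at 8.6 CPM (up to 3.0 CPM). *Amy-p* (149 CPM, up to 360 CPM) and *Jon44E* (1.93 CPM, up to 3.27 CPM) lay within the range elsewhere. The part of these tissues in the *Obp* values was not tested.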

How the results depend on the processing

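The count of 23 members called for MSB over all lines lay between 20 and 29 in the alternatives, and between 21 and 24 with 1 library or line left out. The number of these that rose was 5 of 23 in the main fit, 7 of 26 with DESeq2, and 9 of 29 with no filter. At a threshold of 0.01 the calls summed over single lines went from 163 to 96, those between deletion and nondeletion controls from 8 to 5, those with a response differing between lines from 2 to 1, and those differing between ranges from 1 to 0. DESeq2 gave 15 between deletion and nondeletion controls, 12 for the response by line, 2 for the response by range, and 2 between Zambian and cosmopolitan controls. The last count, 0 in edgeR, was 4 with libraries as the unit and 1 without line ZI273, with a range of 0 to 1 when single libraries or lines were left out. The response differed between lines for 12 members with the other M9 stress library left out and for 4 without the Zambian lines. The call of 1 member between ranges became 0 with RLE size factors, no filter, all 48 libraries, the other M9 library left out, and the line as the unit. Calls between deletion and nondeletion controls ran from 5 to 10 with single libraries left out. *Obp99a* (0.04 for MSB over all lines, not called) was at -0.12 with line as a block, -0.11 with the line as the unit, -0.0441 without M9, -0.0241 without ZI197, -0.0248 without ZI418, and between -0.34 and 0.45 with single libraries left out. The causes were not tested.

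Replicate numbers are shared between groups, and no pairing of the libraries by them was detected (correlation of deviations -0.0485 to 0.172 over 9 lines). A deviation that is small beside the spread between libraries would be missed, so a pairing is not excluded. With a replicate block, 25 members were called for MSB over all lines, 158 over single lines, 24 between lines, 4 for the response by line, 10 between deletion and nondeletion controls, 0 for the response by genotype, and 0 for the response by range. *Obp99a* was then at -0.12. No value for M9 was possible without its only stress library. Members under 0.1 CPM are limited by depth.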
